A study of Mus musculus with 563 samples.

Results

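The proteasome genes described here are the 50 gene entries, of 46078 in each of the 2 deposited count tables, whose symbols begin with Psma, Psmb, Psmc, Psmd, Psme, Psmf or Psmg and a number. A further 4 entries with pseudogene names (-ps) were left out. By known role the 50 were 7 alpha ring subunits, the testis form Psma8, 4 structural beta ring subunits, 3 constitutive catalytic subunits, 3 immunoproteasome catalytic subunits, the thymus form Psmb11, 6 ATPases and 3 other subunits of the base, 8 lid subunits, 3 chaperones of base assembly, 4 chaperones of core assembly, 5 activator genes, the inhibitor Psmf1 and Psmc3ip. Psmc3ip meets the naming rule, but its product is known as a factor of meiotic recombination and not as a part of the proteasome.

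The proteasome is the protease complex that degrades proteins marked with ubiquitin. Its barrel-shaped core particle holds the catalytic sites inside its beta rings, the alpha rings gate the entry, and a regulatory particle made of an ATPase base and a lid recognises, unfolds and feeds in the substrate. In cells of the blood system, immunoproteasome subunits, which interferon induces in many other cells, can take the place of the constitutive catalytic subunits, and together with autophagy the proteasome is the main route by which cells remove proteins.

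The cells were single hematopoietic stem cells (HSCs) from the bone marrow of mice with the genotype Gfp-Lc3, a reporter that fuses green fluorescent protein with the autophagosome protein LC3, and all were isolated at steady state. The groups were old cells in 3 groups labelled LO, MID and HI, and young cells, with ages given only as old and young. The labels name the reporter level and index sorting but do not say which measure LO, MID and HI rank, nor how the bounds were set. After filtering, the first and second table held 65 and 71 LO cells, 68 and 66 MID cells, 68 and 61 HI cells, and 63 and 71 young cells. No label names an animal, so each group was taken as 1 sample, untested against the others. The values of the 2 tables are given side by side or as their mean.

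The kept cells had a median of 257238 nuclear reads in the LO group, 254723 in the MID group, 340529 in the HI group and 271443 in the young group. All 10 HSC markers, among them Procr, Mecom, Hlf and Kit, were above the level filter, and their summed level was 4947 counts per 1000000 nuclear reads (CPM) in LO cells, 4642 CPM in MID cells, 4130 CPM in HI cells and 4737 CPM in young cells. In HI against LO all 10 were lower in both tables. Of the 30 genes of G2 and M phase, 28 were higher in HI than in LO cells in both tables, and 34.1% of HI cells held reads of 8 or more of them, against 4.88% of LO, 7.09% of MID and 14.8% of young cells, at an equal depth of 100000 reads. Of 6 mast cell and basophil markers only Gata2, which HSCs also express, passed the level filter, and the summed level of the 6 was 450 CPM in LO, 421 CPM in MID, 378 CPM in HI and 322 CPM in young cells, with Mcpt8 and Prss34 at 0 reads in all groups. Of 8 B cell markers only Cd79b passed, with a sum of 60.3, 51.6 and 64.9 CPM in LO, MID and HI cells and 86.5 CPM in young cells, and Igll1 at 0 reads. Of 8 T and NK cell markers only Nkg7 passed, with a sum of 30.1, 36.7 and 53.6 CPM in LO, MID and HI cells and 28.8 CPM in young cells. Young cells of the second table held Xist at 3539 CPM, against 1.4 to 10.8 CPM in every other sum of cells, and the Y-linked gene Uty at 0.4 CPM, against 76.7 to 154 CPM in the others.

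The start regions of the catalytic genes are shown because the constitutive and the immunoproteasome forms diverged in HI against LO cells. Each is 250 bases before and 50 bases after the start site in RefSeq (GRCm38.p6), 5′ to 3′ on the gene's strand. Capitals mark a match on either strand to TGACNNNGC, the core of the element bound by Nfe2l1 and Nfe2l2, to CCAAT, bound by the NF-Y factors, to TTCNNNGAA, bound by STAT factors, or to GAAA, 2 bases of any kind and GAAA again, the core of the interferon-stimulated response element.
Psmb5, chr14:54617946-54618245, minus strand: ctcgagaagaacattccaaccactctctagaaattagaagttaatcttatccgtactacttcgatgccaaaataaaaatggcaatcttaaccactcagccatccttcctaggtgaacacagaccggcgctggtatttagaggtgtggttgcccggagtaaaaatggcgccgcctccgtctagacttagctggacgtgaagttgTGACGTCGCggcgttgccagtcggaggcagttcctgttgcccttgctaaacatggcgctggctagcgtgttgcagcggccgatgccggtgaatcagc
Psmb6, chr11:70525107-70525406, plus strand: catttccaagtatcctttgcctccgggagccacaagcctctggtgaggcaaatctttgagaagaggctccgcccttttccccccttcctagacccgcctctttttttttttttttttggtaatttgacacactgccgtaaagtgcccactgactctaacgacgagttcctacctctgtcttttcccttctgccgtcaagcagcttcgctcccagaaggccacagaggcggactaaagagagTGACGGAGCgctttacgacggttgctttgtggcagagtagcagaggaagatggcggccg
Psmb8, chr17:34197945-34198244, plus strand: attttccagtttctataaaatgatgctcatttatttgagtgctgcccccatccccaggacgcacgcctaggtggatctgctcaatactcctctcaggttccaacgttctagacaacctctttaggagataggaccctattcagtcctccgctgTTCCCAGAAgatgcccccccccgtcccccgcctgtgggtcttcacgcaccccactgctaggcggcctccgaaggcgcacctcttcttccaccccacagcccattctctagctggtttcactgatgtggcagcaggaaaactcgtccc
Psmb9, chr17:34187281-34187580, minus strand: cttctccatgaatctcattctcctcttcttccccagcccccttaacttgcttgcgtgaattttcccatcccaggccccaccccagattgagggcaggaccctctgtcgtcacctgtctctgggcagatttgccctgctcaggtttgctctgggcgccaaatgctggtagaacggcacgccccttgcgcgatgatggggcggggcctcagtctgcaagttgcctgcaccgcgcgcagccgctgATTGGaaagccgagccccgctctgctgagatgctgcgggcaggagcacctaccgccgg
Psmb10, chr8:105938343-105938642, minus strand: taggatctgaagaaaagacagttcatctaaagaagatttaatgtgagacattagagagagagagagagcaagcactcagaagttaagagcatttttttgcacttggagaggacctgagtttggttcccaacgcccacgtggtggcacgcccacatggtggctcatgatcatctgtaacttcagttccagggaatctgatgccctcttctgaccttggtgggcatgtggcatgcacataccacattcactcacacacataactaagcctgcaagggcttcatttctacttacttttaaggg
The table of start regions held 42 of the 50 genes, with no entry for Psmb7. TGACNNNGC was found at the constitutive genes Psmb5 and Psmb6 and at none of Psmb8, Psmb9 and Psmb10. Over the 42 genes it was found at 6, the others being Psmc6, Psmd9, Psmd12 and Psme4, or 14.3%, beside 13.99% of all genes in the table. CCAAT, read as ATTGG on the printed strand of Psmb9, was found at 15 of the 42, or 35.7%, beside 41.1% of all genes. TTCNNNGAA, which reads the same on both strands, was found at 3, Psmb8, Psmd2 and Psmg1, or 7.14%, beside 9.55% of all genes. The interferon-stimulated core was found at 5, Psmb3, Psmd4, Psmd9, Psme1 and Psmg4, or 11.9%, beside 3.99% of all genes. A match is a description of the letters in this window.

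Proteasome genes were read broadly in these cells. A level filter, set at 10 CPM as the mean of the groups and at 10% of kept cells with a read, was passed by 49 of the 50, the exception being Psmb11, the catalytic subunit of the thymic cortex, which had 1 read in LO cells, 0 in MID cells, 2 in HI cells and 1 in young cells. Per gene length, as reads per exon length scaled to 1000000 (TPM) and averaged over the groups, the highest of all was the alpha subunit Psma6 at 464 TPM, and the lowest alpha subunit was Psma3 at 25.2 TPM. Among structural beta subunits the range was 354 TPM for Psmb2 to 29.4 TPM for Psmb3. Among constitutive catalytic subunits it was 246 TPM for Psmb6, the caspase-like subunit, to 59.2 TPM for Psmb7, the trypsin-like subunit. The immunoproteasome subunits lay above these at each end, with 295 TPM for Psmb8, 283 TPM for Psmb10 and 144.1 TPM for Psmb9.

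In the regulatory particle, the ATPases spanned 312 TPM for Psmc5 to 65.1 TPM for Psmc2. The other base subunits spanned 225 TPM for the ubiquitin receptor Psmd4 to 56.99 TPM for the scaffold Psmd1, and the lid 187 TPM for Psmd7 to 34.8 TPM for Psmd11. The interferon-inducible activator subunit Psme1 had 329 TPM, and the nuclear activator Psme4 had 29.3 TPM, the lowest of the activators. Assembly chaperones were lower, with 166 TPM for Psmg4 and 17.9 TPM for Psmg3 at the ends of the core group, and 85.7 TPM for Psmd10 and 18.5 TPM for Psmd9 at the ends of the base group. Subunits that stand in equal numbers in the complex thus differed several-fold in transcript level. The levels of Psma3, Psma4, Psma5, Psmb3, Psmd2, Psme2 and Psme2b are uncertain, since near-identical copies of them held over 20% of the reads of gene and copies together, and TPM divides by the length of all annotated exons, used or not.

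**Figure D1:**
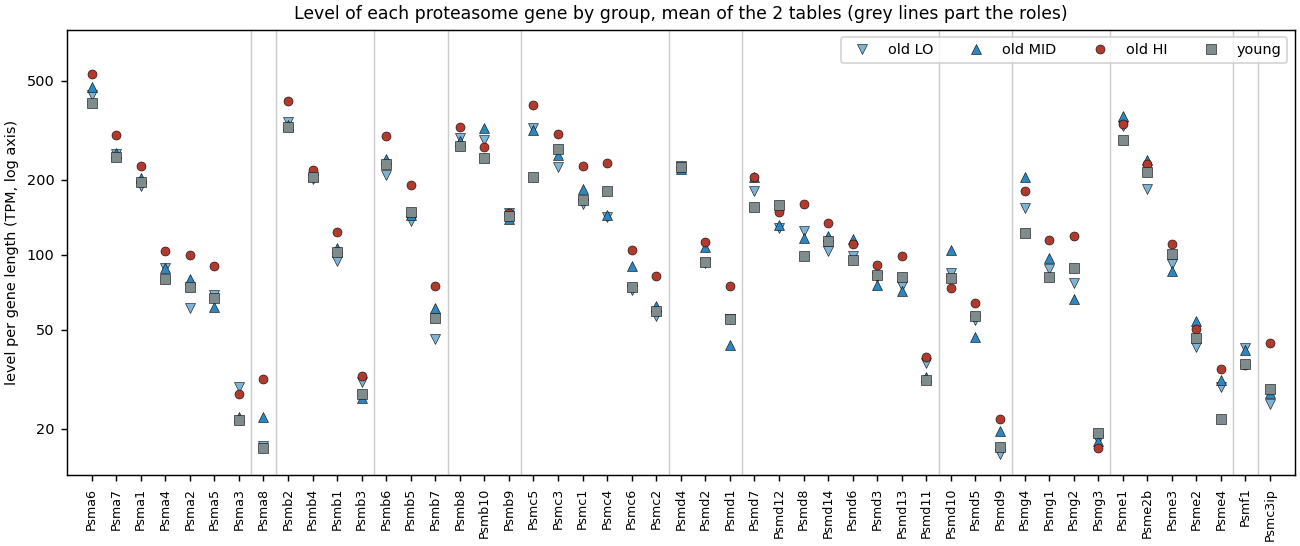
Level of the 49 proteasome genes above the filter in old LO, MID, HI and young cells, as TPM on a log axis, each point the mean of the 2 tables and grey lines parting the roles in the order alpha ring, Psma8, structural beta, constitutive catalytic, immunoproteasome, ATPases, other base, lid, base chaperones, core chaperones, activators, Psmf1 and Psmc3ip. Genes of 1 role spread from 464 TPM for Psma6 to 25.2 TPM for Psma3, and the HI points are the highest for all 6 ATPases.

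Summed over the 50 genes, the proteasome level was higher in HI cells than in LO, MID or young cells in each table. It was 5847 and 6371 CPM in LO cells in the first and second table, 6139 and 6888 CPM in MID cells, 6944 and 7965 CPM in HI cells and 6252 and 6245 CPM in young cells. The genes took 0.615% of nuclear reads in LO cells, 0.654% in MID cells, 0.738% in HI cells and 0.623% in young cells. The log2 difference of the sum was 0.29 for HI against LO (0.25 and 0.32 in the 2 tables), 0.19 for HI against MID (0.18 and 0.21) and 0.09 for MID against LO (0.07 and 0.11). Against young cells it was 0.25 for HI (0.15 and 0.35), 0.06 for MID (-0.03 and 0.14) and -0.03 for LO (-0.10 and 0.03). HI cells thus lay apart from each other group in 1 direction in both tables, while LO and MID lay on both sides of young cells.

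In single cells, the median summed level was 5988 CPM in LO cells, 6055 CPM in MID cells, 7042 CPM in HI cells and 5915 CPM in young cells, and the cells of the groups overlapped widely. The lowest and highest cell had 2333 and 12716 CPM in HI and 2833 and 10970 CPM in LO. No single cell gave more than 2.66% of a group's proteasome reads. At equal depth, the median cell held reads of 36 of the 50 genes in the LO group, 37 in MID, 42 in HI and 35 in the young group. Across HI cells the summed level had a Spearman correlation with the summed level of the G2 and M phase genes of 0.545 and 0.502 in the 2 tables, of 68 and 61 cells, and of 0.525 and 0.498 with S phase genes. In the other groups these correlations were 0.109 to 0.231 and 0.163 to 0.339. They are descriptions over cells that share a group, a table and the totals to which both levels are scaled.

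**Figure D2:**
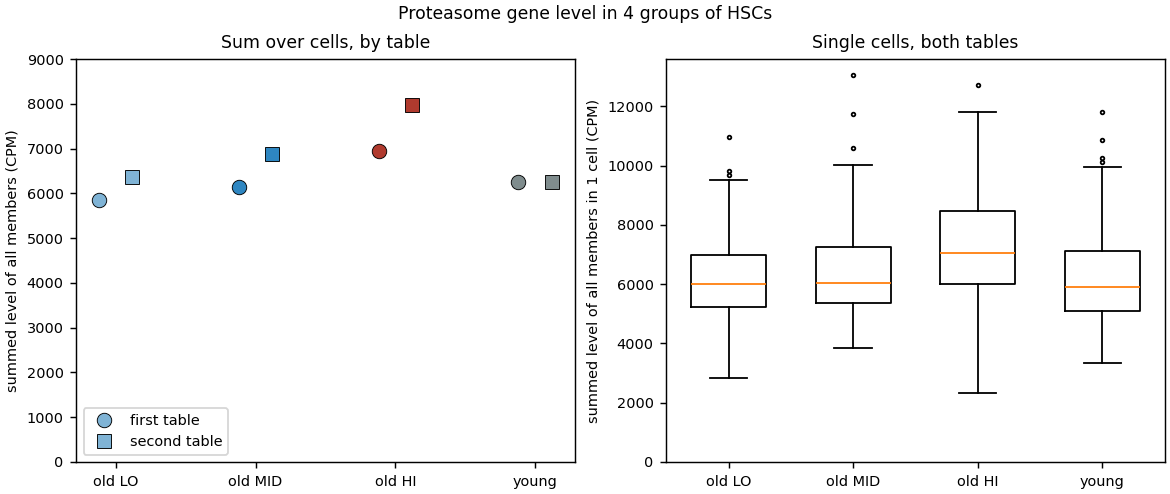
Summed level of the 50 proteasome genes in CPM in old LO, MID, HI and young cells. On the left each point is the sum over the kept cells of 1 table, and the 2 HI sums, 6944 and 7965 CPM, lie highest within their tables; on the right are boxes of single cells (median, quartiles, whiskers to the last cell within 1.5 times the box length), with a median of 7042 CPM in HI and 5988 CPM in LO cells.

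The study asks how transcription differs with autophagy engagement in old HSCs. The labels do not say whether LO and HI rank that engagement, so the comparison of HI with LO is described by label only. Of the 49 genes above the filter, 35 were higher in HI cells in both tables, or 71.4%, beside 33.4% of all 10721 genes above the filter. A further 2 were lower in both, Psmd10 and Psmf1, beside 28.7% of all genes. The remaining 12 had opposite signs in the 2 tables. The median log2 difference of the 49 was 0.29, beside 0.02 over all genes. Few differences were large: 4 genes, Psma8, Psmb7, Psmc3ip and Psmc4, were 1.5-fold higher or more in each table, or 8.16%, beside 4.84% of all genes, and 0 were as much lower, beside 3.29%.

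The ATPases of the base, which unfold the substrate, were higher together. All 6 were higher in HI than in LO cells in both tables, and their summed level was 1089 and 1359 CPM in HI cells and 773 and 954 CPM in LO cells, a log2 difference of 0.50 (0.49 and 0.51). Psmc4 stood at the top with 183 and 218 CPM in HI cells, against 107.4 and 133.3 CPM in LO cells, a log2 difference of 0.73 (0.77 and 0.70). Psmc4 was at 114.3 and 136.8 CPM in MID cells and at 162 and 156 CPM in young cells, so both HI values exceeded all others. At equal depth Psmc4 was read in 83.7% of HI cells (exact binomial 95% interval 76.01 to 89.78) and in 60.2% of LO cells (50.9 to 68.9). These intervals cover counting error only, since the cells of a group are not replicates. Without thinning Psmc4 was read in 88.4% of HI and 64.7% of LO cells. The differences of the other 5 ATPases ran from 0.31 for Psmc5 to 0.55 for Psmc6.

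The constitutive catalytic subunits were higher in HI cells, and the immunoproteasome subunits that replace them differed little. Psmb5, the chymotrypsin-like subunit, had 57.3 and 79.4 CPM in HI cells, against 40.3 and 56.1 CPM in LO cells (log2 difference 0.50). Psmb6 had 208 and 237 CPM in HI cells, against 167 and 140 CPM in LO cells (0.54). Psmb7 had 97.99 and 104.1 CPM in HI cells, against 56.9 and 66.3 CPM in LO cells (0.71). For each of these genes both HI values lay above both LO values. Psmb8, the immunoproteasome form of Psmb5, had 433 and 440 CPM in HI cells and 411 and 366 CPM in LO cells (0.17), also without overlap. Psmb9, the form of Psmb6, had 225 and 200 CPM in HI cells and 218 and 203 CPM in LO cells (0.01), and Psmb10, the form of Psmb7, had 188 and 178 CPM in HI cells and 175 and 212 CPM in LO cells (-0.07); both of these overlapped. As a gene span, introns included, Psmb9 overlaps Tap1, the peptide transporter on the opposite strand, by 212 bases. Psmb7 overlaps Nek6 by 6571 bases on the same measure. Such an overlap with some gene was found for 24 of the proteasome genes. Whether the counting used strand is not given in the sources used here. Tap1 itself had a difference of 0.13 (-0.08 and 0.34).

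As a share of the TPM of all 6 catalytic genes, the immunoproteasome subunits made up 65.3% and 64.8% in LO cells, 63.9% and 61.1% in MID cells, 59.5% and 54.2% in HI cells and 60.2% and 60.3% in young cells. The HI share was lower than the LO share by 5.77 and 10.6 percentage points in the 2 tables, and it was the lowest of the 4 groups in each table. The share does not depend on scaling between groups, and in each pair HI cells lay below LO cells in both tables. Psmb8 made up 66.7% and 59.6% of Psmb8 and Psmb5 in HI cells and 73.1% and 63.4% in LO cells. Psmb9 made up 35.6% and 30.2% of Psmb9 and Psmb6 in HI cells and 40.1% and 42.5% in LO cells. Psmb10 made up 79.4% and 77.5% of Psmb10 and Psmb7 in HI cells and 86.03% and 86.52% in LO cells. In reads, not divided by length, the share was 68.04% in HI cells (exact binomial 95% interval 67.7 to 68.4, for counting error only) and 75.05% in LO cells (74.6 to 75.5).

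**Figure D3:**
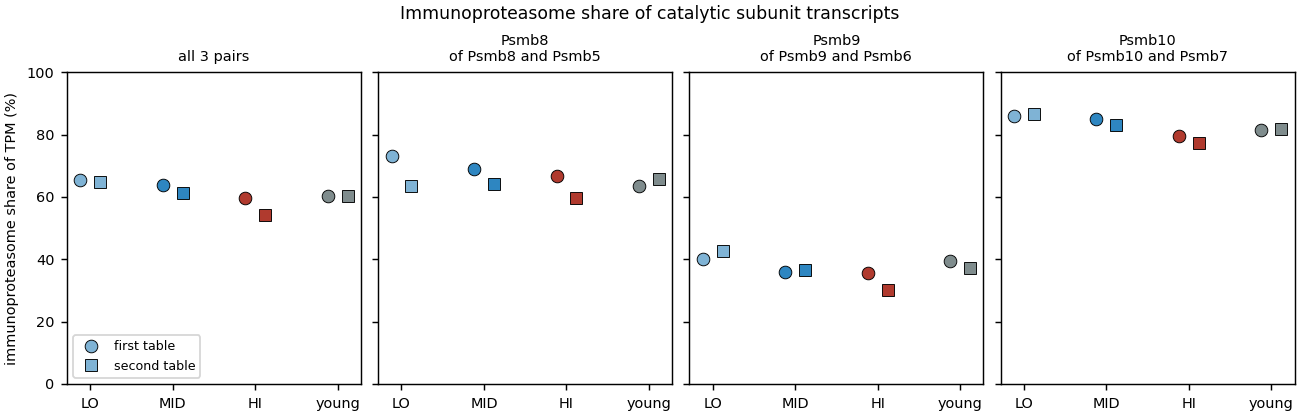
Immunoproteasome share of catalytic subunit TPM in percent in old LO, MID, HI and young cells, for the 3 pairs together and for each immunoproteasome subunit beside the constitutive subunit it replaces; each point is 1 table. HI cells are at 59.5% and 54.2% for the 3 pairs together, against 65.3% and 64.8% in LO cells.

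In the alpha ring 6 of 7 genes were higher in HI than in LO cells in both tables, with a summed difference of 0.31 (0.27 and 0.35); Psma2 led with 133.6 and 157 CPM in HI cells, against 97.96 and 76.9 CPM in LO cells (0.73), and Psma3, whose copies make its level uncertain, was at 46.9 and 37.2 CPM in HI cells and 43.9 and 45.4 CPM in LO cells (-0.09). The gene span of Psma2, introns included, overlaps that of AW209491 on the same strand by 8943 bases. Psma8, the alpha subunit of the spermatoproteasome, had 32.4 and 29.7 CPM in HI cells, against 14.2 and 19.2 CPM in LO cells (0.87), but it was read in 19.7% of kept cells, and 1 cell held 12.2% of its reads in HI and 18.3% in LO cells. Of the structural beta subunits 3 of 4 were higher in both tables, with a summed difference of 0.28, and of the lid 5 of 8, with 0.26. The other base subunits had a summed difference of 0.21 (0.04 and 0.38), in which Psmd4 had -0.05 and 0.05.

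Among assembly factors, the chaperones of the core, which guide the alpha ring, had a summed difference of 0.40 (0.52 and 0.28). Psmg2 had 84.9 and 77.8 CPM in HI cells, against 48.8 and 56.8 CPM in LO cells (0.62). Its partner Psmg1 had 62.2 and 59.4 CPM in HI cells, against 37.6 and 55.6 CPM in LO cells (0.40). Psmg4 had a difference of 0.24, and its partner Psmg3 had 15.7 and 22.8 CPM in HI cells and 20.5 and 20.1 CPM in LO cells (-0.10). Pomp, the maturation factor of the core that the naming rule does not cover, was at 162 CPM in HI and 149 CPM in LO cells (0.14, with 0.41 and -0.13 in the 2 tables). Of the base chaperones Psmd9 differed by 0.50 and Psmd5 by 0.24, while Psmd10, also known as gankyrin, had 51.04 and 33.6 CPM in HI cells, against 53.8 and 42.9 CPM in LO cells (-0.21).

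Among regulators of the core, Psme2 and Psme2b had differences of 0.25 and 0.35; their transcripts are 99.4% identical over 794 bases, so how reads were split between them is uncertain. Psme1 was at 0.03, Psme3 at 0.29 (-0.05 and 0.64) and Psme4 at 0.21 (0.50 and -0.09). Psmf1, an inhibitor of the core particle in vitro, had 86.1 and 97.6 CPM in HI cells, against 111.1 and 101.6 CPM in LO cells (-0.21). Psmc3ip had 24.3 and 40.1 CPM in HI cells, against 15.3 and 20.7 CPM in LO cells (0.78).

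**Figure D4:**
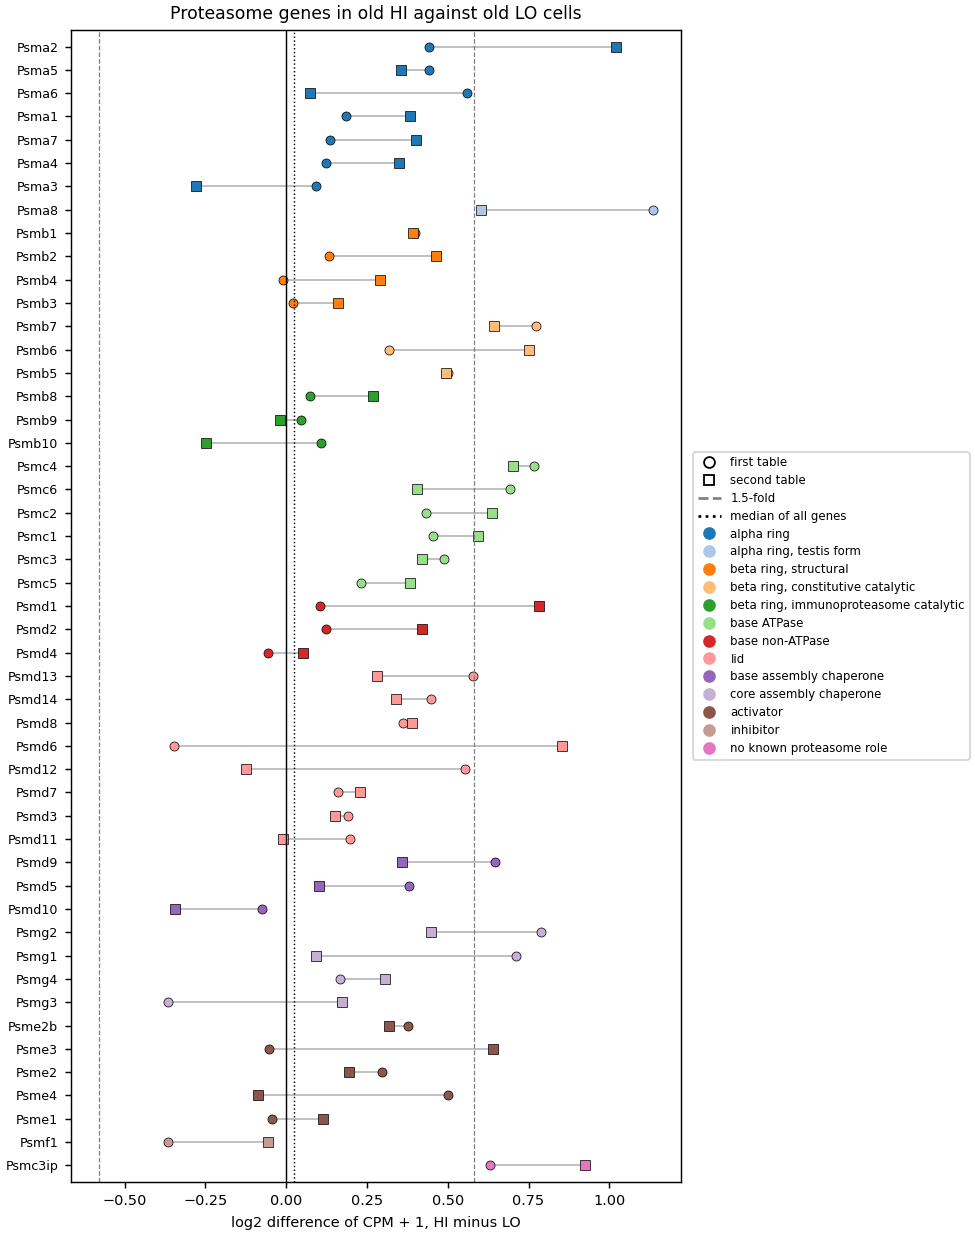
Log2 difference of CPM plus 1 between old HI and old LO cells for the 49 proteasome genes above the filter, a circle for the first and a square for the second table, coloured by role; the dashed lines are 1.5-fold and the dotted line is the median of all genes, 0.02. The circles and squares of 35 genes lie right of 0, among them all 6 ATPases, and those of Psmd10 and Psmf1 lie left of it.

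HI and LO cells also differed in cell cycle genes, in depth and in total RNA reads per spike-in read. The S phase list had a median difference of 1.39 and the G2 and M phase list of 2.05 in HI against LO cells. Without the cells that held reads of 8 or more G2 and M phase genes, 87 HI and 130 LO cells were left, and the summed proteasome difference was 0.16 (0.14 and 0.18), in place of 0.29. In these cells 27 of 49 genes were higher in both tables, beside 28.2% of all genes, and 6 were lower, beside 26.1%. The constitutive catalytic subunits then differed by 0.39 (0.36 and 0.42), the ATPases by 0.39 (0.42 and 0.36), the core chaperones by 0.31, the alpha ring by 0.15, the lid by 0.08, and the immunoproteasome subunits had 0.01 and -0.01 in the 2 tables. Psmc4 (0.67 and 0.69) and Psma8 (1.18 and 0.78) were still 1.5-fold higher in each table, or 2 of 49 genes, where 5.85% of all genes were 1.5-fold apart in either direction, while Psmb7 was at 0.83 and 0.32 and Psmc3ip at -0.59 and 1.59. The immunoproteasome share was then lower in HI cells by 4.23 and 8.21 points. All nuclear reads per spike-in read were 70.3 in HI and 49.05 in LO cells, and proteasome reads per spike-in read were 0.519 in HI and 0.301 in LO cells; the labels do not give the spike-in amount. With spike-in scaling, which was chosen after seeing the data, the summed difference was 0.78, where the median of all genes was at 0.51.

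Between HI and MID cells, 32 of the 49 genes were higher in HI cells in both tables, beside 30.9% of all genes, and 3 were 1.5-fold higher in each table, Psmc4 (0.67), Psmc3ip (0.64) and Psmd1 (0.76), or 6.12% beside 4.07% of all genes. A further 7 were lower in both tables, beside 27.1%. Psmd1 had 178 and 254 CPM in HI cells, against 106.9 and 146 CPM in MID cells. Between MID and LO cells, 0 of the 49 differed 1.5-fold in each table, beside 3.24% of all genes, and 22 were higher in MID cells in both tables, beside 27.1%, and 9 were lower, beside 25% (2683 of 10721 genes). The comparisons among HI, MID and LO share groups, so these counts are not independent.

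The comparison of old with young cells used the mean of LO, MID and HI. No proteasome gene of the 49 differed 1.5-fold in each table, beside 6.23% of all genes. Of the 49, 20 were higher in old cells in both tables, or 40.8%, beside 31.3% of all genes, 2 were lower in both, beside 27.3%, and 27 had opposite signs, beside 41.4%. The summed difference was 0.10, with 0.01 in the first and 0.18 in the second table, and the median over the 49 was 0.11, beside 0.02 over all genes. The young cells of the second table are the ones that differ from the rest in Xist and Y-linked reads. Within that table age and this sex-linked difference cannot be told apart, and values averaged over the 2 tables include it. What part it has in the gap between the tables was not tested. Markers of other blood cells differed too: the summed level of 10 dendritic cell markers, mostly the class II genes Cd74, H2-Aa and H2-Ab1, was 1230 CPM in LO cells, 1553 CPM in MID cells, 1133 CPM in HI cells and 437 CPM in young cells, while the lineage genes Siglech and Xcr1 did not pass the level filter. That of 10 megakaryocyte and platelet markers was 2079, 1692 and 1744 CPM in LO, MID and HI cells and 1214 CPM in young cells, and that of 10 neutrophil and monocyte markers was 900.01, 913 and 828 CPM in LO, MID and HI cells and 627 CPM in young cells. That of 8 multipotent progenitor markers was 483, 523 and 561 CPM in LO, MID and HI cells and 757 CPM in young cells, with 3 of the 4 above the filter lower in old cells in both tables. Their part in the old against young values was not tested.

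The ATPase Psmc5 differed most between old and young cells. It had 171 and 184 CPM in LO cells, 148 and 209 CPM in MID cells, 201 and 240 CPM in HI cells and 128.4 and 103.3 CPM in young cells, a log2 difference of 0.73 for old against young (0.43 and 1.02). Every old sum lay above both young sums, and at equal depth Psmc5 was read in 76.4% of LO, 81.9% of MID, 86.99% of HI and 64.8% of young cells (without thinning 75.7%, 82.8%, 88.4% and 66.4%). The nuclear activator Psme4 had 96.1 and 96.7 CPM in LO cells, 120.8 and 87.6 CPM in MID cells, 136.3 and 90.99 CPM in HI cells and 87.5 and 60.4 CPM in young cells (0.51), higher in each old group within each table. The core chaperone Psmg4 had 31.3 and 35.9 CPM in LO cells, 40.4 and 51.6 CPM in MID cells, 35.2 and 44.6 CPM in HI cells and 25.3 and 29.8 CPM in young cells (0.51), with no old sum below a young one. Psma8 had the next value, 0.54, from opposite signs in the tables (1.42 and -0.34), and 1 cell held 33.3% of its reads in MID and 21.3% in young cells.

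At the low end were the lid subunit Psmd12 with -0.25 (-0.41 and -0.10), the core chaperone Psmg3 with -0.16 (-0.11 and -0.21), Psmc4 with -0.10 (-0.26 and 0.06) and the nuclear activator Psme3 with -0.09 (-0.20 and 0.01). Psmd12 had 113.5 and 155 CPM in LO cells, 115.7 and 166 CPM in MID cells, 167 and 142.2 CPM in HI cells and 176 and 165 CPM in young cells, with values that overlapped in the second table. The X-linked Psmd10 differed in opposite directions in the tables, with 53.8 and 42.9 CPM in LO cells, 68.3 and 53.5 CPM in MID cells, 51.04 and 33.6 CPM in HI cells and 30.8 and 66.3 CPM in young cells. Psmd1 likewise had differences of -0.47 and 0.69.

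Of the 6 catalytic genes, 3 had opposite signs in the tables in old against young cells. These were Psmb5 at 0.03 (-0.21 and 0.28), Psmb6 at 0.09 (0.23 and -0.05) and Psmb9 at -0.03 (0.09 and -0.15). Psmb7 was at 0.09 (0.16 and 0.02), Psmb8 at 0.11 (0.16 and 0.05) and Psmb10 at 0.23 (0.36 and 0.10). Psmb10 had 175 and 212 CPM in LO cells, 222 and 218 CPM in MID cells, 188 and 178 CPM in HI cells and 152 and 189 CPM in young cells, with old and young values that overlapped in the second table. Among activators Psme1 was at 0.20 (0.01 and 0.40), Psme2 at 0.05 and Psme2b at -0.01, and the inhibitor Psmf1 was at 0.11 (-0.09 and 0.30). Among chaperones Psmg1 was at 0.26, Psmg2 at -0.04, Psmd5 at -0.08 and Psmd9 at 0.14.

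The old groups taken singly against young cells were not alike. HI cells had 32 of the 49 genes higher and 2 lower in both tables, beside 33.5% and 27.2% of all genes, and 2 of the higher ones were 1.5-fold higher in each, Psmc5 (0.65 and 1.21) and Psme4 (0.63 and 0.58), beside 4.77% of all genes. MID cells had 16 higher and 9 lower in both tables, beside 28.1% and 28.9% of all genes, and Psmg4 (0.65 and 0.77) 1.5-fold higher, beside 3.87%. LO cells had 11 higher and 12 lower, beside 27.2% and 30.8%, with 0 of them 1.5-fold apart, beside 9.33%. The 3 comparisons share the young cells, and in the second table all 3 also carry the difference in Xist and Y-linked reads.

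**Figure D5:**
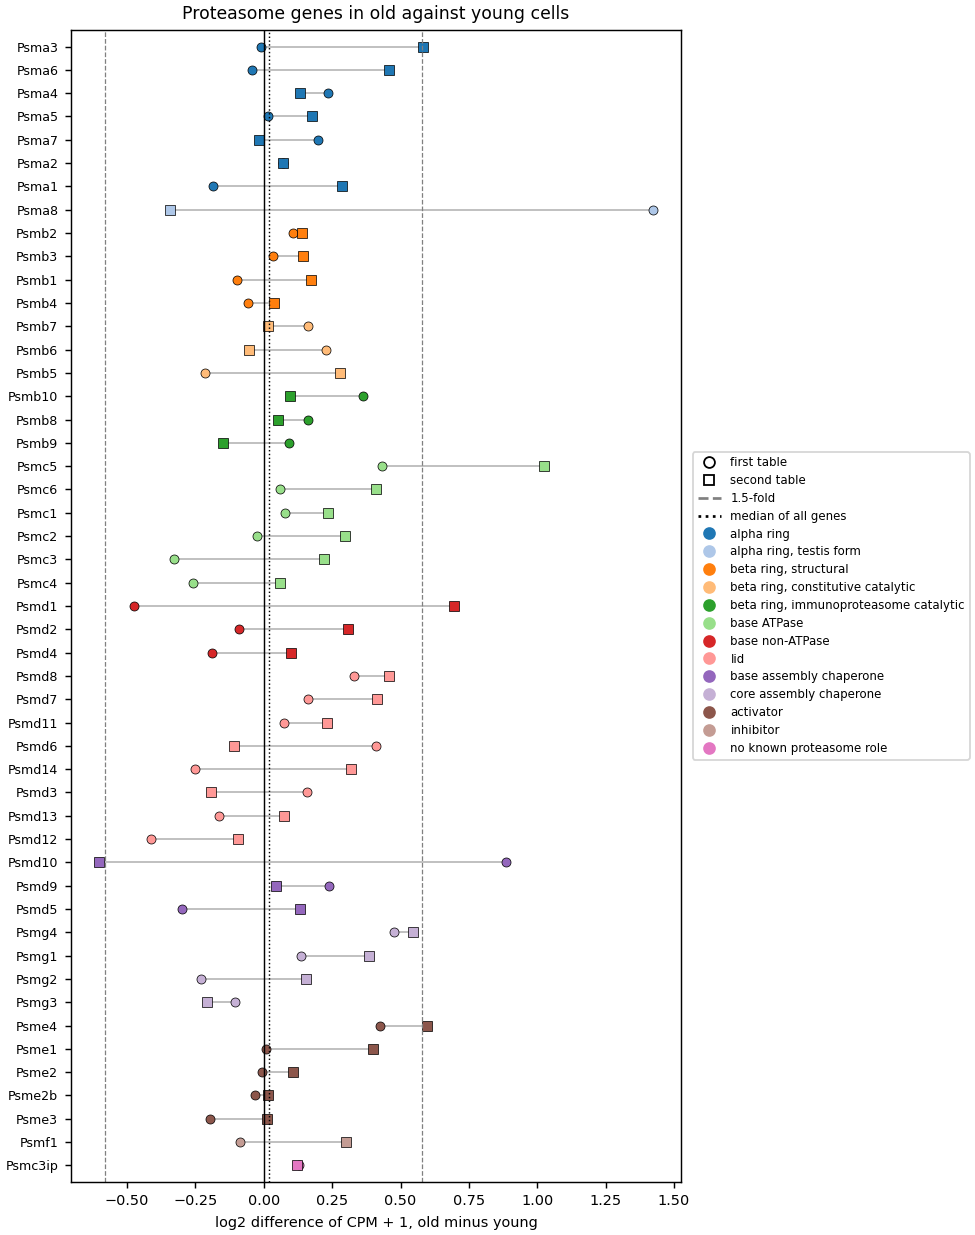
Log2 difference of CPM plus 1 between old cells (mean of LO, MID and HI) and young cells for the 49 proteasome genes above the filter, a circle for the first and a square for the second table, coloured by role; the dashed lines are 1.5-fold and the dotted line is the median of all genes, 0.02. For 27 genes the 2 points lie on opposite sides of 0, and Psmc5 reaches 0.43 and 1.02.

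Genes that work with the proteasome outside the naming rule were read beside it. Their levels and differences, here and for old against young cells, are means of the 2 tables. A single value thus does not show whether both tables had that sign. Of 19 partners of the proteasome, such as shuttle factors and deubiquitinases, 6 had higher and 5 lower levels in HI cells in both tables. Over all genes the matching shares were 33.4% and 28.7%, and they apply to each list in this paragraph. The partners had a median of 0.07. The deubiquitinase Uchl5 had the highest difference (0.62) and Zfand5 the lowest (-0.45). Of 12 transcription control genes above the filter 4 were higher and 3 lower, with a median of 0.02. Nfe2l1, the factor that raises proteasome transcription when the protease is inhibited, had 59.2 CPM in HI and 72.6 CPM in LO cells (-0.29), Nfe2l2 had 167 CPM in HI and 179 CPM in LO cells (-0.10), Hsf2 was at 0.57 and Stat3 at -0.45. Of 6 ubiquitin and E1 genes 4 were higher and 1 lower, from 0.42 for Rps27a to -0.52 for Uba6. Of 11 genes of class I antigen processing 2 were higher and 6 lower, with a median of -0.17, from 0.37 for Pdia3 to -0.39 for Nlrc5. Of 14 interferon regulators 1 was higher and 7 were lower, with a median of -0.24, from 2.01 for Irf8 to -1.17 for Socs1. Irf8 had 19.1 CPM in HI and 4.5 CPM in LO cells.

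In old against young cells, 10 of the 19 partners were higher and 4 lower in both tables, beside 31.3% and 27.3% of all genes. The partners had a median of 0.06, from 0.54 for Rad23b to -0.31 for Ubqln1. Of the transcription control genes 3 were higher and 3 lower, beside the same shares of all genes. Their median was 0.06, from 0.43 for Stat3 to -0.62 for Foxo4. Nfe2l1 was at 0.06 and Nfe2l2 at 0.29.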

How the data were processed

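Each sample is 1 sorted cell with its own Smart-seq2 library. The counts that the authors deposited are raw reads per gene, whole numbers without molecular identifiers, in 2 tables of 283 and 280 cells. Per the submitters' processing notes, the build was mm10 and the tools were featureCounts 2.0.0, STAR 2.7.3a, DESeq2 and Subread, given without roles; rows of unassigned reads carry names in the HTSeq style, so how reads of overlapping genes or copies were given is not known. Rows that name no gene, spike-ins included, held 76.4% of reads and were left out of totals.

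A cell was kept where nuclear genes had 50000 reads or more, 1000 or more of them were read and mitochondrial reads were 20% or less, which left 533 of 563. Each is 1 well, so no doublets were called. The 8 sums of a group in a table held 18580222 to 25382151 reads. Reads were summed per group and table and scaled to CPM with TMM factors (edgeR 4.0.16, R 4.3.3). Differences are log2 of CPM plus 1, taken within a table and averaged over the 2 tables; on this scale low genes' changes are understated. TPM used exon lengths of GENCODE M21 (GRCm38). Shares of cells were taken after thinning to 100000 reads, which left 501 cells and left out 13 LO, 7 MID, 6 HI and 6 young kept cells. No test was run, since each group is 1 sample; a gene was called where the log2 difference reached 0.58 with 1 sign in each table. Intervals are exact 95% Poisson or Clopper-Pearson intervals and cover counting error only. The proteasome genes, roles and other lists were chosen with earlier results of these data known. Genes named are the 4 highest and 4 lowest of each main comparison, the ends of each role by TPM, the catalytic, activator, inhibitor and chaperone genes, and the ends of each other list, except that old against young values of the ubiquitin and E1 genes, the class I genes and the interferon regulators are not reported here; others, such as Psmd1, were chosen after their values were seen. Copies were genes whose transcripts matched over at least 300 bases at 90% identity or more. Promoters came from a RefSeq table. Computed differences were checked on simulated counts. The other tools were Python 3.11.15, SciPy 1.17.1, NumPy 2.4.6, matplotlib 3.10.9 and pandas 2.3.3. Alternatives were median-ratio size factors (DESeq2 1.42.0), CPM without factors, pseudocounts of 0.1 and 10 CPM, no and a stricter filter (50 CPM and 25% of cells), a mean over cells, cells of at least 100000 reads, leaving out cells with G2 and M phase or other blood cell reads or 1 LO cell, each table alone and each old group alone. The rule for other blood cells left out cells that held reads of 3 or more markers of 1 type. The types were erythroid, neutrophil and monocyte, B cell, T and NK cell, and mast cell and basophil. It left 105 LO, 111 MID, 95 HI and 103 young cells, or 414 of 533. Spike-in scaling, adding reads of copies and the counts of genes of 1 sign under every alternative were added after seeing the data.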

Additional observations from a re-analysis of the deposited data

Results flagged for a closer look

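Reads outside the proteasome genes themselves lay in processed copies of them, and 5 copies held 20% or more of the reads of copy and gene together. Gm13835, on chromosome 6 and 100% identical to Psma3 transcripts over 665 bases, had 12278 reads, against 6650 for Psma3. Gm6542, a copy of Psma4, had 8792 reads, against 14643 for Psma4. Gm5422, a copy of Psmd2 on chromosome 10, had 7878 reads, against 28302 for Psmd2. Gm8394 and Gm12989, copies of Psma5 on chromosomes 10 and 4, had 5442 and 4097 reads, against 6582 for Psma5. These and the other copies together were higher in HI than in LO cells by 0.20 and 0.28 on the log2 scale in the 2 tables, and how many of these reads come from the parent genes was not tested.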

How the results depend on the processing

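Of the 82 values that answer a comparison, counted once per alternative, 65 stayed within the bounds set for them, 16 moved outside and 1 reversed in sign. The bound of a difference or share was the standard deviation of its 2 table values, which either table alone meets by construction. A count stayed where it changed by 1.5-fold or less, or remained 0. The summed HI against LO difference of 0.29 was 0.16 without cells holding 8 or more G2 and M phase genes and 0.78 with spike-in scaling, where the median of all genes was 0.51. The count of 4 genes 1.5-fold apart between HI and LO, beside 8.13% of all genes, was 2 with a pseudocount of 10 CPM (4.82%), 2 under the stricter filter (5.04%), 2 without the G2 and M phase cells (5.85%), 8 in the first table alone (24.4%), 11 in the second (2894 of 10721 genes), and 28 with spike-in scaling (25.1%). The summed difference of old against young cells, 0.10, was -0.034 with LO alone as old, 0.25 with HI alone and 0.38 with spike-in scaling, where all genes had a median of 0.28. Its count of 0 genes, beside 6.23% of all genes, was 1 without cells holding 3 or more markers of another blood cell type (7.05%), 2 in the first table alone (19.8%), 5 in the second (20.1%), 1 with MID alone (7.92%), 2 with HI alone (8.58%) and 3 with spike-in scaling (9.86%). In 1 table alone a gene needed 1.5-fold in that table only, and the shares of all genes rose as well. The cause of these changes was not tested for any alternative, also where cells were left out. The count of 35 genes higher in HI ranged from 27, beside 28.2% of all genes, without the G2 and M phase cells to 49, beside 73.6%, with spike-in scaling, and the HI minus LO immunoproteasome share from -10.6 to -5.77 points. Adding the copies' reads left the sums at 0.28 and 0.10. No paired analysis was possible because the shared numbers in the labels name single cells, each group is 1 sample and no test was run. Animals are not named, so spread between them is unknown, and few cells with reads limit single genes such as Psma8, read in 19.7% of kept cells.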
